A study of Mus musculus with 10 samples.

Results

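The mitochondrial chromosome of the mouse carries 37 genes, and all 37 were present in the deposited expression table of 37991 genes. They were chosen by matching the Ensembl identifiers of the table to the mitochondrial chromosome of the GRCm38 annotation, with no use of measured values. There are 13 protein-coding genes, 2 ribosomal RNA (rRNA) genes and 22 transfer RNA (tRNA) genes. Of these, 31 reached a mean of 1 FPKM (fragments per kilobase of gene, scaled to the size of the library, the unit of the table) over the 10 libraries and were tested: all 13 protein-coding genes, both rRNA genes and 16 tRNA genes.

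RNA came from primary keratinocytes, the main cells of the epidermis, isolated at postnatal day 4 to 5 and cultured in low-calcium medium (0.05 mM calcium chloride) on collagen. The groups were Bcl10-/- (KO) cells with IL-17A at 200 ng/mL for 5 h (2 libraries), unstimulated KO cells (2 libraries), Bcl10+/- (Het) littermate cells with the same IL-17A treatment (3 libraries) and unstimulated Het cells (3 libraries), on the allele labelled Bcl10tm1Mak. Every culture carried at least 1 mutant Bcl10 copy, since the controls were heterozygous and not wild type. BCL10 is a signalling adaptor of the NF-kB pathway, and IL-17A is a cytokine that acts on the epidermis. The unstimulated and the IL-17A library with the same genotype and replicate number are called a culture, and the 5 cultures are KO cultures 1 and 2 and Het cultures 1, 2 and 3. The titles also give each library a number. Het cultures 2 and 3 hold numbers 33, 34, 37 and 38, while both KO cultures and Het culture 1 hold numbers between 1 and 14.

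Transcription of mitochondrial DNA starts from control regions on both strands and gives long transcripts that are cut at the tRNAs into mRNAs, rRNAs and tRNAs. The heavy-strand transcript holds both rRNAs, most tRNAs and every mRNA but the one for ND6, which lies on the light-strand transcript. The proteins are subunits of respiratory complexes I, III and IV and of ATP synthase (complex V), whose other subunits are encoded in the nucleus. Most mitochondrial mRNAs and the rRNAs carry short poly(A) tails, whereas mature tRNAs are short and untailed. Poly(A)-selected libraries therefore do not give levels of mature tRNA.

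The libraries did not all match their labels. Bcl10 was 0.969, 16.4, 17.0 and 16.6 FPKM in the KO libraries and 59.5 to 72.3 FPKM in Het cultures 2 and 3. In the pair labelled Het culture 1, here called by that label throughout, Bcl10 stood at 18.0 and 16.3 FPKM, close to 3 of the 4 KO libraries and against the label. The unstimulated library of KO culture 1 also stood apart, with 12.6% of all FPKM in its 10 highest genes. Results between genotypes are therefore given with and without that pair. Keratin genes Krt5 (4430 to 6426 FPKM) and Krt14 (3723 to 5015 FPKM) were high in every library, and 5 of 5 leukocyte markers were listed at 0. Summed fibroblast markers were high in KO culture 2 alone (28.5 and 28.7 FPKM). They stood at 0.210 and 0.366 FPKM in KO culture 1, within the range of 0.159 to 0.454 FPKM in the Het libraries. Gapdh, which every cell uses, was listed at 0.278 to 4.58 FPKM, so a very low value in this table can be a failed estimate. The depth is not in the table. Steps between low values put it at 15.9 to 50.8 M fragments per library, at which 3 fragments in a gene of 70 bp equal 0.843 to 2.70 FPKM; that floor covers counting error only. Only 48.6% to 52.4% of the low values lay within 0.05 of a whole step, so depth and floor are rough estimates.

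Several mitochondrial genes have copies in the nuclear genome, and this bears on what a mitochondrial value can hold. Aligned to the annotated transcripts at 95% identity or more over 100 bases or more, 9 of the 37 genes matched 11 nuclear pseudogenes. Of the 11 copies, 7 lie side by side on chromosome 1 and 5 of these 7 match with 0 mismatches. The perfect copies are Gm10925 (678 bases of mt-Atp6), Gm28661 (681 bases of mt-Co2), Gm28437 (783 bases of mt-Co3), Gm28439 (876 bases of mt-Nd4) and Gm10222 (294 bases of mt-Nd4l). The first 4 of these have no row in the deposited table, so their levels cannot be set beside those of the mitochondrial genes. Reads from such stretches cannot be told apart by sequence, and the authors' placement of them was not given in the sources used here. Complex I gene mt-Nd4l (GRCm38 chrM:9877-10173, plus strand) is shown because all but its last bases, in capitals, are the whole of Gm10222 (chr1:24612407-24612700, minus strand).
mt-Nd4l: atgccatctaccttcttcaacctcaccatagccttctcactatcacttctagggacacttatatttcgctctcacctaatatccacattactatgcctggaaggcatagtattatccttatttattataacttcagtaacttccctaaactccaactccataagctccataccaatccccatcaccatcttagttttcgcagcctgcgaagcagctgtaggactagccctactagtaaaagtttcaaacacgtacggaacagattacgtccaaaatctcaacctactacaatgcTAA

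Gm10222 followed mt-Nd4l in every library. Its FPKM was 1.02 to 1.03 times that of mt-Nd4l in each of the 10 libraries. Gm13340, a full-length copy of mt-Co1 on chromosome 2 with 37 differences in 1545 bases, was listed at 0.0868 to 0.0981 times mt-Co1. Gm13341, a copy of mt-Co2 on the same chromosome at 95.9% identity, was listed at 0.153 to 0.170 times mt-Co2. The ranges of these ratios overlapped between the sets of library numbers.

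A stretch of 150 bases shows the kind of difference between mt-Co1 (chrM:5781-5930, plus strand) and Gm13340 (chr2:22589045-22589194, minus strand). Capitals mark the 7 bases that differ, a denser set than the 37 in 1545 of the whole gene.
mt-Co1: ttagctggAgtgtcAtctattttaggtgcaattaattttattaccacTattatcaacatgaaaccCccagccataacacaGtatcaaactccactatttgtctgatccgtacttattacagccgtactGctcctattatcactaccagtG
Gm13340: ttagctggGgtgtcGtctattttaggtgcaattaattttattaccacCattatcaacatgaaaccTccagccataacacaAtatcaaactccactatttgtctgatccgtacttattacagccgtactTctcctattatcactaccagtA

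The mitochondrial genes were first compared between the sets of library numbers. On culture means (2 cultures with numbers 33 to 38 against 3 with numbers 1 to 14), 8 of the 13 protein-coding genes were lower in numbers 33 to 38, none was higher, and mt-Atp6 fell furthest of the 8. At the same time the large rRNA, mt-Rnr2, and 3 light-strand tRNAs were higher. In all, 9 of 31 tested genes were called lower and 4 higher by limma at an adjusted p of 0.05, over all 12054 tested genes. Over those 12054 genes 12.4% were called lower, 12.6% higher and 25.0% either way. The calls other than mt-Atp6 changed with single cultures: leaving out KO culture 1 left mt-Atp6 and mt-Atp8, leaving out KO culture 2, Het culture 1 or Het culture 2 left mt-Atp6 alone, and leaving out Het culture 3 gave 18 calls. Unstimulated libraries alone gave 2 calls (mt-Atp8 and mt-Atp6, beside 4.03% over all genes), IL-17A libraries alone gave 14 (beside 11.8%) and cultures labelled Het alone gave 10, all lower (beside 7.70%). Bcl10 level and number set cannot be told apart here, since the cultures of numbers 33 to 38 are the ones with high Bcl10, and 0 KO libraries are numbered above 14. In bulk RNA, fewer cells of a type and less RNA per cell cannot be told apart either. Melanocyte markers moved with the number sets: 5 of 6 were called higher, with summed levels of 319 to 410 FPKM in numbers 33 to 38 and 170 to 199 FPKM in numbers 1 to 14. Of 7 basal keratinocyte markers 3 were called lower and 0 higher, with sums of 8607 to 10072 FPKM and 10956 to 12289 FPKM, and of 3 differentiated keratinocyte markers 2 were called lower. No tested fibroblast, endothelial or muscle marker was called. The part of these cell types in the mitochondrial difference was not tested.

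**Figure D1:**
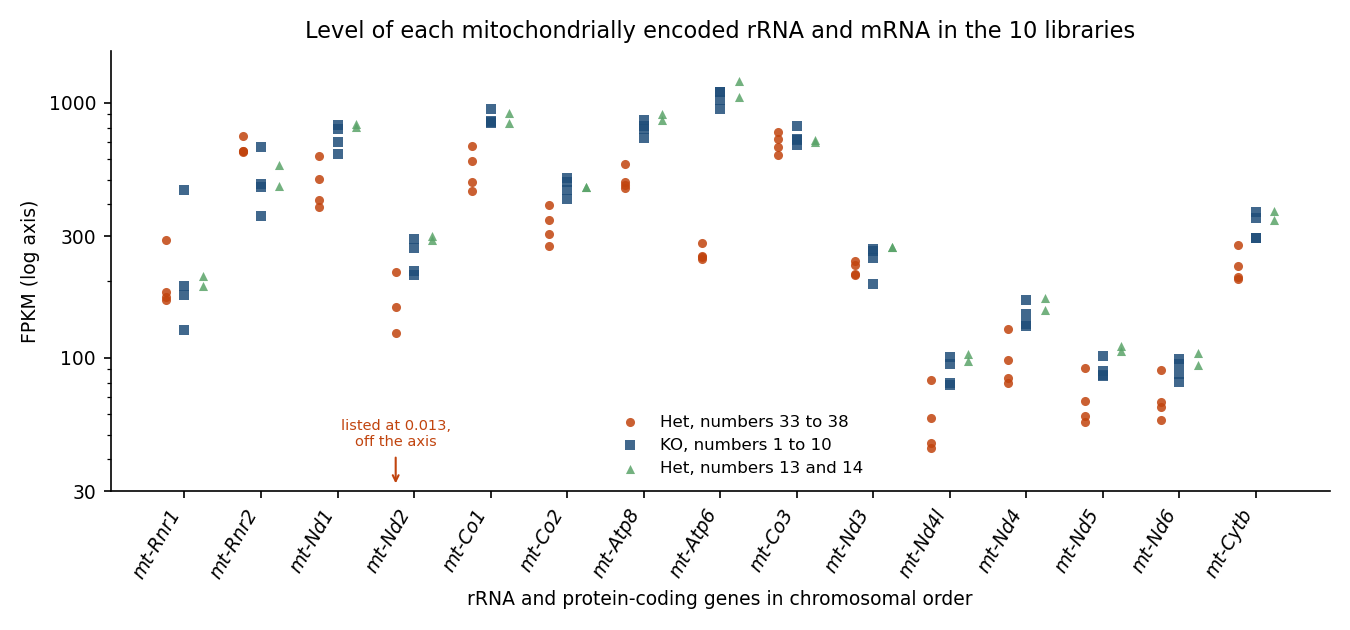
FPKM (log axis) of the 2 rRNA and 13 protein-coding genes in chromosomal order, 1 point per library: circles are Het cultures 2 and 3 (numbers 33 to 38), squares the KO libraries and triangles Het culture 1. The circles lie apart from and below the rest for mt-Atp6 (245 to 283 against 945 to 1220 FPKM) and among the rest for mt-Co3 (623 to 771 against 684 to 814 FPKM); 1 circle of mt-Nd2 is off the axis.

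ATP synthase has 2 mitochondrially encoded subunits, and they moved unequally. ATP6 forms part of the proton path of the enzyme. The gene mt-Atp6 (ENSMUSG00000064357, GRCm38 chrM:7927-8607, plus strand, 1 exon) was 252, 245, 283 and 249 FPKM in libraries 33, 34, 37 and 38. In numbers 1 to 14 its lowest, median and highest values were 945, 1074 and 1220 FPKM. The sets were far apart. Within numbers 1 to 14 the libraries of Het culture 1 lay with the KO libraries. Bcl10 in that culture was at the KO level, so this does not bear on genotype. The difference was 4.16-fold (log2 -2.06, SE 0.09, 95% interval -2.28 to -1.83, adjusted p = 0.000957, limma). In the cultures labelled Het alone it was -2.14, and without any single culture it was -2.11 to -2.01; it passed the threshold each time.

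The gene mt-Atp8, for a small accessory subunit, shares its mRNA with mt-Atp6. It was 462, 474, 577 and 490 FPKM in libraries 33, 34, 37 and 38, against a lowest, median and highest of 726, 831 and 907 FPKM in numbers 1 to 14. These values did not overlap either, but the difference was smaller (1.65-fold, log2 -0.72, SE 0.10, adjusted p = 0.0177, limma). The ratio of mt-Atp6 to mt-Atp8 was 0.491 to 0.545 in numbers 33 to 38 and 1.23 to 1.36 in numbers 1 to 14. The reading frames of this mRNA overlap by 43 bases, shown in capitals with 20 bases on each side (chrM:7907-7989, plus strand), so a fragment there can count for either gene.
mt-Atp8 end and mt-Atp6 start: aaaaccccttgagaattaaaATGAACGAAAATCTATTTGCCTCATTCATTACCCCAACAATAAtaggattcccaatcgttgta

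Complex IV (cytochrome c oxidase) takes its 3 core subunits from this chromosome. The catalytic subunit gene mt-Co1 was 488, 450, 676 and 592 FPKM in libraries 33, 34, 37 and 38, against 832, 845 and 945 FPKM (lowest, median, highest) in numbers 1 to 14. Libraries of the sets did not overlap (log2 difference -0.67, SE 0.13, adjusted p = 0.0260, limma). The copper-binding subunit gene mt-Co2 was 305, 274, 399 and 346 FPKM, against 420, 467 and 505 FPKM, again without overlap (log2 difference -0.51, adjusted p = 0.0358). The third core subunit gene did not follow them.

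The gene mt-Co3 lies directly downstream of mt-Atp6, with which it shares 1 base. It was 724, 771, 668 and 623 FPKM in libraries 33, 34, 37 and 38, against 684, 716 and 814 FPKM (lowest, median, highest) in numbers 1 to 14. The sets overlapped and the difference did not pass the test (log2 -0.06, 95% interval -0.29 to 0.17, adjusted p = 0.652, limma). The interval leaves room for a smaller change but not for one of the size of mt-Atp6. The ratio of mt-Atp6 to mt-Co3 was 0.318 to 0.424 in numbers 33 to 38 and 1.26 to 1.70 in numbers 1 to 14.

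**Figure D2:**
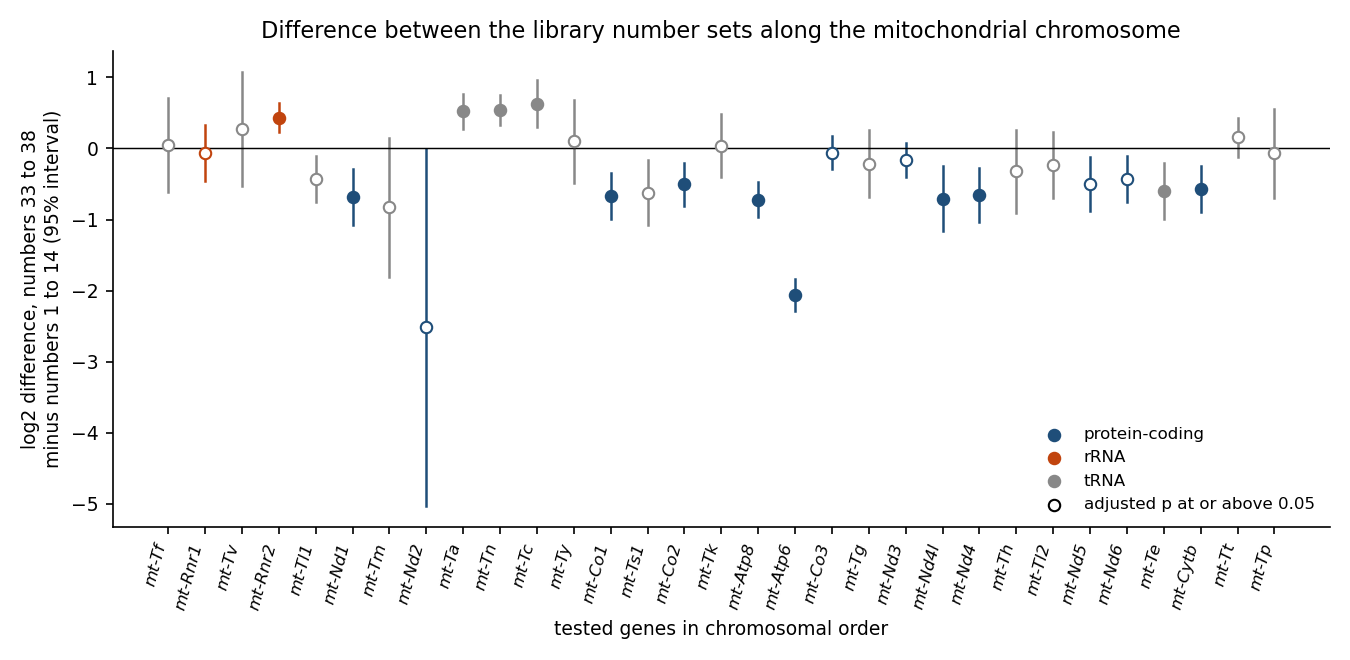
Difference in log2(FPKM + 1) between numbers 33 to 38 and numbers 1 to 14 for the 31 tested genes in chromosomal order, with 95% intervals from limma; filled points have an adjusted p below 0.05. The point for mt-Atp6 (-2.06) lies well below those of its neighbours mt-Atp8 (-0.72) and mt-Co3 (-0.06), and mt-Nd2 has an interval from -5.02 to -0.01.

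Complex I (NADH dehydrogenase) has 7 subunits encoded here, and 3 of them were called lower. mt-Nd1 was 415, 390, 620 and 504 FPKM in libraries 33, 34, 37 and 38, against 631, 796 and 823 FPKM (lowest, median, highest) in numbers 1 to 14 (log2 -0.68, SE 0.16, adjusted p = 0.0341, limma). mt-Nd4 was 83.3, 79.5, 129 and 97.6 FPKM, against 133, 151 and 172 FPKM (log2 -0.66, adjusted p = 0.0332). Both were without overlap between the sets. mt-Nd4l, which overlaps mt-Nd4 by 7 bases on a shared mRNA, was 44.1, 46.4, 82.0 and 58.0 FPKM, against 78.5, 95.6 and 103 FPKM (log2 -0.70, adjusted p = 0.0435). Its highest value in numbers 33 to 38 lay within the range of numbers 1 to 14.

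The other 4 complex I genes did not pass the test. mt-Nd5 was 59.1, 56.2, 90.9 and 67.9 FPKM in libraries 33, 34, 37 and 38, against 84.9, 95.2 and 112 FPKM (lowest, median, highest) in numbers 1 to 14 (log2 -0.50, adjusted p = 0.0590, limma). mt-Nd6, the light-strand mRNA, was 64.3, 56.8, 89.6 and 67.4 FPKM, against 80.4, 94.3 and 104 FPKM (log2 -0.43, adjusted p = 0.0562). In both genes library 37 alone of numbers 33 to 38 reached the range of numbers 1 to 14, and their frames overlap by 14 bases on opposite strands. mt-Nd3 was 230, 212, 240 and 214 FPKM in libraries 33, 34, 37 and 38, against 195, 265 and 271 FPKM (lowest, median, highest) in numbers 1 to 14 (log2 -0.16, adjusted p = 0.240). It thus resembled mt-Co3, its neighbour upstream across a tRNA gene, in showing overlapping sets. mt-Nd2 was listed at 0.0132, 125, 217 and 158 FPKM, against 211, 280 and 300.2 FPKM, and its difference (log2 -2.52, SE 1.04, adjusted p = 0.110) rests on the library listed near 0. In that library, unstimulated Het culture 2, Gm13339, which copies the last 510 bases of mt-Nd2 at 96.7% identity, was at 8.85 FPKM, within its range of 8.13 to 17.2 FPKM over the 10 libraries. With IL-17A libraries alone, which leave that library out, the log2 difference of mt-Nd2 was -0.85 (adjusted p = 0.0406, limma).

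Complex III has 1 mitochondrially encoded subunit, cytochrome b. Its gene mt-Cytb was 207, 204, 276 and 229 FPKM in libraries 33, 34, 37 and 38, against 296, 350.3 and 378 FPKM (lowest, median, highest) in numbers 1 to 14. The sets did not overlap, and the log2 difference was -0.58 (SE 0.13, adjusted p = 0.0318, limma). Libraries of the number sets did not overlap for 7 of 13 protein-coding genes, all lower in numbers 33 to 38 (mt-Nd1, mt-Co1, mt-Co2, mt-Atp8, mt-Atp6, mt-Nd4 and mt-Cytb). Of all 12054 tested genes, 17.4% showed such a gap in the lower direction and 35.9% in either. The median log2 difference of the protein-coding genes was -0.66, beside 0.02 over all tested genes.

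The rRNAs of the mitochondrial ribosome lie first on the heavy-strand transcript. The large-subunit rRNA gene mt-Rnr2 was 644, 647, 742 and 646 FPKM in libraries 33, 34, 37 and 38, against 360, 475 and 672 FPKM (lowest, median, highest) in numbers 1 to 14. It was called higher (log2 0.44, SE 0.08, adjusted p = 0.0252, limma), although the unstimulated library of KO culture 1, at 672 FPKM, lay within the other set. The small-subunit rRNA gene mt-Rnr1 was 169, 173, 289 and 181 FPKM, against 129, 192 and 455 FPKM, and did not pass (log2 -0.07, adjusted p = 0.770). Each rRNA thus had its highest or next highest value in the unstimulated libraries of KO culture 1 and Het culture 3.

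Of 9 tested heavy-strand tRNA genes, 0 were called, with log2 differences of -0.82 to 0.27. Among these, mt-Tf, mt-Tk, mt-Tg, mt-Th and mt-Tt averaged 1.30 to 2.17 FPKM, within the floor of 3 fragments (0.843 to 2.70 FPKM). The 7 tested light-strand tRNA genes averaged 5.83 to 41.7 FPKM, so the calls cannot be compared between strands. Of 7 tested light-strand tRNA genes, 3 were called higher and 1 lower. The 3 are neighbours between mt-Nd2 and mt-Co1: mt-Ta (tRNA-Ala, log2 0.52, adjusted p = 0.0253), mt-Tn (tRNA-Asn, 0.54, adjusted p = 0.0204) and mt-Tc (tRNA-Cys, 0.63, adjusted p = 0.0284, limma). mt-Tn was 14.5, 16.2, 17.1 and 16.5 FPKM in libraries 33, 34, 37 and 38, against 8.79, 10.9 and 11.9 FPKM (lowest, median, highest) in numbers 1 to 14, with no overlap. mt-Tc did not overlap between the sets either, while mt-Ta did. The fourth gene of this cluster, mt-Ty (tRNA-Tyr), had a log2 difference of 0.10 (adjusted p = 0.766). mt-Te (tRNA-Glu), beside mt-Nd6, was lower (-0.60, adjusted p = 0.0437).

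The highest tRNA rows were mt-Tl1 (75.5 to 140 FPKM) and mt-Ts1 (24.4 to 58.6 FPKM). mt-Ts1 (tRNA-Ser) lies opposite the end of mt-Co1, with 3 shared bases, and its FPKM was 0.0464 to 0.0635 times that of mt-Co1 in the 10 libraries. It had a log2 difference of -0.62 (adjusted p = 0.0540). A strand setting was not given in the sources used here. Without strand the RNA of a light-strand gene cannot be told apart from heavy-strand precursor that spans it. The 6 tRNA genes below a mean of 1 FPKM held values of 0 to 2.39 FPKM, at about the floor of 3 fragments, and were not tested.

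The shares of several protein-coding rows in their summed FPKM also differed between the number sets. These are shares of rows and cannot be read as shares of mRNAs. mt-Atp6 and mt-Atp8 share an mRNA, and mt-Atp6 and mt-Co3 have perfect nuclear copies. mt-Atp6 held 6.51% to 7.55% of the summed protein-coding FPKM in numbers 33 to 38, against 16.9% to 19.2% in numbers 1 to 14. mt-Co3 held 15.4% to 22.8%, against 11.3% to 14.1%, and mt-Nd3 held 5.53% to 6.91%, against 3.64% to 4.54%. mt-Nd6 held 1.68% to 2.06%, against 1.39% to 1.64%, and mt-Nd2 from 0.0004% to 4.98%, against 3.79% to 4.82%. The share of mt-Atp8 overlapped between the sets, at 13.3% to 14.0% against 13.4% to 14.3%. Relative to the mean log2 level of 9 protein-coding genes (all but mt-Atp6, mt-Co3, mt-Nd2 and mt-Nd3), mt-Atp6 stood at 0.48 ± 0.22 (SD, n = 2 cultures) in numbers 33 to 38 and 1.93 ± 0.03 (n = 3) in numbers 1 to 14. That mean leaves out mt-Co3 and mt-Nd3, the protein-coding genes that differed least between the sets, so values relative to it depend on that choice. On the same scale mt-Rnr2 stood at 1.86 ± 0.21 and 0.82 ± 0.13. Both comparisons reached p = 0.2 in a two-sided exact permutation test, the smallest p that 2 against 3 cultures allow.

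**Figure D3:**
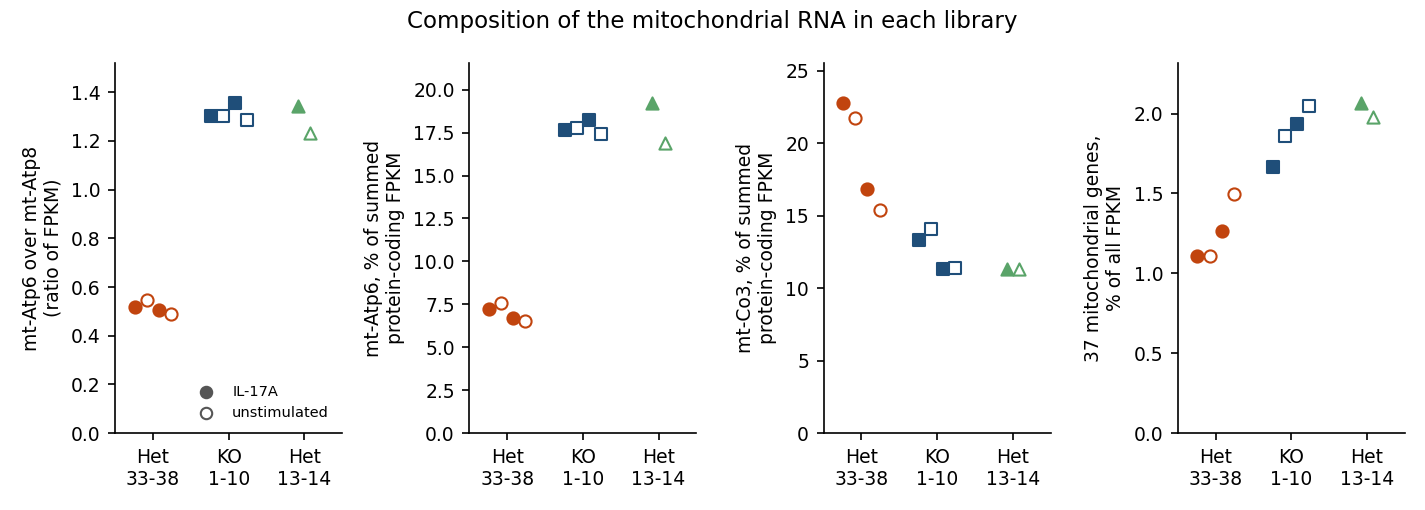
From left to right, per library: the ratio of mt-Atp6 to mt-Atp8 FPKM, the shares of mt-Atp6 and of mt-Co3 in the summed protein-coding FPKM, and the share of the 37 genes in all FPKM; filled symbols are IL-17A and open symbols unstimulated libraries. Libraries 33 to 38 (circles) lie at 0.491 to 0.545 in the first panel, apart from the KO libraries (squares) and Het culture 1 (triangles) at 1.23 to 1.36.

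Summed over the 37 genes, mitochondrial RNA held 1.24% ± 0.19 of all FPKM in numbers 33 to 38 (SD, n = 2 cultures) and 1.93% ± 0.14 in numbers 1 to 14 (n = 3). The difference of -0.682 percentage points reached p = 0.2 in a two-sided exact permutation test, again the smallest possible. Without mt-Atp6 the shares were 1.18% ± 0.19 and 1.63% ± 0.11, so the difference was not that of mt-Atp6 alone. Most of the sum was mRNA: protein-coding genes held 0.845% to 1.14% of all FPKM in numbers 33 to 38 and 1.47% to 1.76% in numbers 1 to 14. rRNA genes held 0.206% to 0.271% and 0.134% to 0.292%.

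Nuclear genes for complex I and the mitochondrial ribosome were called higher more often than lower in numbers 33 to 38, which is not the direction of the mitochondrial mRNAs. Of 36 nuclear complex I genes, 11 were called higher and 0 lower in numbers 33 to 38 (median log2 0.24), led by Ndufa7 (0.56), Ndufs5 (0.52) and Ndufs4 (0.51). Of 75 mitochondrial ribosomal protein genes, 15 were called higher and 0 lower (median 0.24), led by Mrps22 (0.55), Mrpl14 (0.48) and Mrps35 (0.43). Medians were 0.25 for 9 nuclear complex III genes (2 higher and 1 lower), 0.25 for 10 of complex IV (1 higher, Cox5b) and 0.23 for 15 of complex V (2 higher, Atp5e and Atp5o). The background of 12.6% called higher and 12.4% lower applies to these counts, and the median over all tested genes was 0.02. The calls in complexes III, IV and V were too few to be set apart from that background.

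The calls in most other lists for the organelle were few and in both directions, beside the shares of 12.6% higher and 12.4% lower over all genes. Of 11 genes for transcription of mitochondrial DNA, the elongation factor Tefm (log2 0.54) and Mterf2 (0.50) rose and the RNA polymerase Polrmt (-0.38) fell. Of 20 RNA processing genes, Hsd17b10 (0.40), a subunit of the mitochondrial enzyme that cuts tRNA 5′ ends, rose, while Elac2 (-0.55), which cuts their 3′ ends, and the mRNA-binding protein gene Lrpprc (-0.28) fell. Of 9 tested genes of the mitochondrial stress response, 5 rose and 0 fell, led by Trib3 (1.00), Ddit3 (0.91) and Atf4 (0.84). Among 8 biogenesis regulators, Ppargc1b (-0.65) and Myc (-0.35) fell, and among 16 markers of mitochondrial mass Hspd1 (-0.50) and Tomm40 (-0.32) fell while Vdac3 (0.34) rose. Of 10 replication genes 1 rose (Rrm2b, 0.35) and 1 fell (Top1mt, -0.36), and of 4 complex II genes, all nuclear, Sdhb rose (0.43) and Sdha fell (-0.39). In the fit of all 4 groups these nuclear lists hold 0 members called by genotype or IL-17A, where 0% to 0.0498% of all genes were called.

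**Figure D4:**
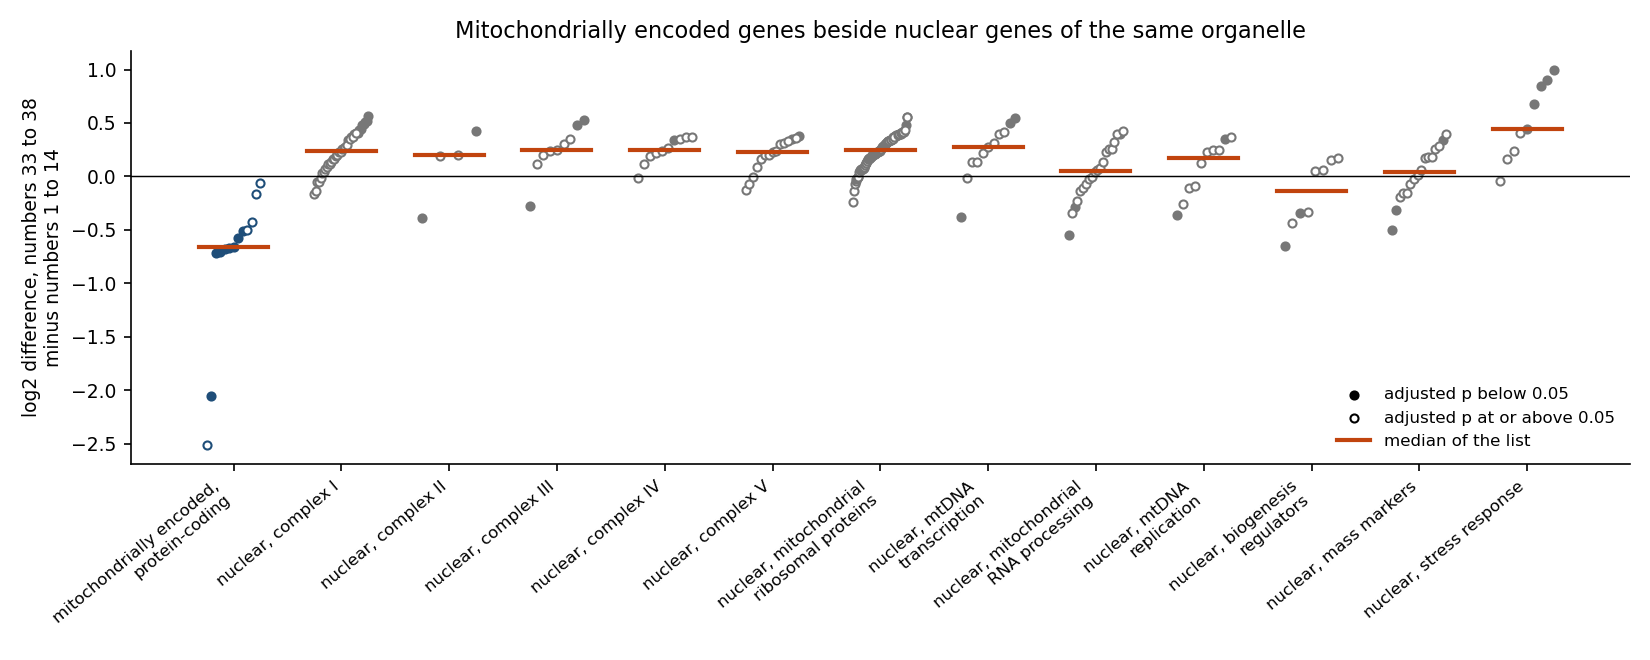
Difference in log2(FPKM + 1) between numbers 33 to 38 and numbers 1 to 14 for each tested gene, by list, with the median as a bar; filled points have an adjusted p below 0.05. The 13 mitochondrially encoded mRNAs all lie below 0 (median -0.66), and the medians of the nuclear lists run from -0.14 (biogenesis regulators) to 0.44 (stress response).

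Between genotypes, the question was whether loss of BCL10 altered mitochondrial RNA. No mitochondrial gene was called by limma in either condition. With IL-17A, 0 of 31 were called and 3 lay under an unadjusted p of 0.05 (mt-Tv, mt-Rnr2 and mt-Tc), beside 0.0249% called over all 12054 genes, of which 981 lay under an unadjusted p of 0.05. In unstimulated cells 0 of 31 were called and 1 lay under an unadjusted p of 0.05 (mt-Tn), beside 0% called over all genes and 562 under an unadjusted p of 0.05. The protein-coding genes had higher fitted means in KO libraries in 11 of 13 cases with IL-17A (median log2 0.36, beside -0.01 over all genes) and in 13 of 13 unstimulated (0.31, beside -0.01).

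mt-Atp6 was split within the Het group. It was 945 and 1098 FPKM in KO libraries with IL-17A, against 1220, 245 and 249 FPKM in Het libraries with IL-17A. Unstimulated KO libraries had 1029 and 1100 FPKM, against 1050, 252 and 283 FPKM in unstimulated Het libraries. Het culture 1 stood with the KO cultures in both conditions. The log2 difference was 1.27 with IL-17A (SE 0.77, adjusted p = 0.507) and 1.33 unstimulated (SE 0.77, adjusted p = 0.728, limma).

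Without the libraries labelled Het culture 1, mt-Atp6 was higher in KO by 2.04 with IL-17A and by 1.99 unstimulated (log2, SE 0.11, adjusted p = 0.00126 each, limma). With IL-17A 4 mitochondrial genes were then called, mt-Atp6, mt-Atp8 (0.67), mt-Tv (-0.85) and mt-Tc (-1.14), beside 6.70% over all genes, and unstimulated 1 was called, beside 1.05%. That comparison sets KO cultures of numbers 1 to 10 against Het cultures of numbers 33 to 38, so genotype and number cannot be told apart in it. Within numbers 1 to 14, where the control is Het culture 1 alone, 0 mitochondrial genes were called in either condition, beside 0.0581% over all genes with IL-17A and 0.0498% unstimulated. With 1 control library per condition, from a culture with Bcl10 at the KO level, these values do not bear on genotype. There the median log2 difference of the protein-coding genes was -0.20 with IL-17A (1 of 13 above 0) and -0.09 unstimulated (3 of 13 above 0), and mt-Atp6 stood at -0.26 and 0.02 (SE 0.14 each).

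**Figure D5:**
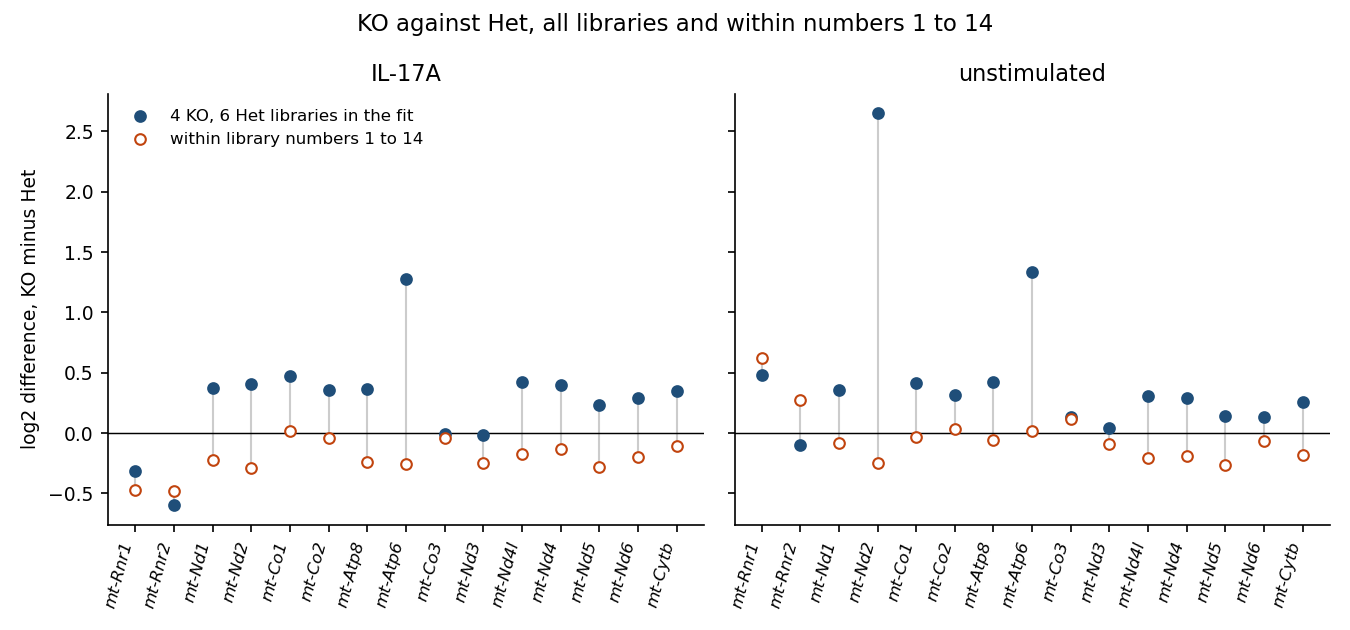
Difference in log2(FPKM + 1) between KO and Het for the rRNA and protein-coding genes, with IL-17A on the left and unstimulated on the right; filled points use all libraries and open points numbers 1 to 14 only. For mt-Atp6 the filled points lie at 1.27 and 1.33 and the open points at -0.26 and 0.02.

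The share of mitochondrial RNA in all FPKM was 1.88% ± 0.16 in KO cultures (SD, n = 2) and 1.50% ± 0.47 in Het cultures (n = 3). That difference was within the spread of the 3 Het cultures (two-sided exact permutation p = 0.6, smallest possible 0.2). Without the libraries labelled Het culture 1 the shares were 1.88% ± 0.16 and 1.24% ± 0.19 (SD, n = 2 cultures each). The difference was then 0.633 percentage points (two-sided exact permutation p = 0.333, the smallest possible). In that comparison genotype and number cannot be told apart. For the rRNAs, mt-Rnr2 was 360 and 466 FPKM in KO libraries with IL-17A, against 572, 647 and 646 FPKM in Het libraries with IL-17A. These values did not overlap, as in 13.8% of all tested genes in this direction. With IL-17A 5 of 31 mitochondrial genes did not overlap in either direction (mt-Rnr2, mt-Tv and mt-Tc lower in KO, mt-Co1 and mt-Th higher), beside 28.5% of all tested genes. For mt-Rnr2 the difference did not pass (log2 -0.60, adjusted p = 0.507, limma).

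IL-17A changed no mitochondrial gene by the test. By limma 0 of 31 were called in KO cells, 0 in Het cells and 0 for the mean of both genotypes, beside 0.0249%, 0.00830% and 0.0498% over all genes. At an unadjusted p under 0.05 there were 2 in KO cells (mt-Rnr1 and mt-Tc), 1 in Het cells (mt-Tv) and 3 for the mean (mt-Rnr1, mt-Tc and mt-Tt), beside 176, 162 and 175 of all 12054 genes. The IL-17A effect differed between KO and Het for 0 of 31 genes, beside 0% over all genes, and at an unadjusted p under 0.05 for 0 of 31, beside 143 of all genes. With culture as a block 0 were called in each genotype (0% over all genes), 0 for the mean of both (0.108%) and 0 for 1 effect over the 5 cultures (0.149%). The fitted changes of the mRNAs were small and mostly below 0: the median log2 change was -0.09 in KO cells (12 of 13 below 0) and -0.12 in Het cells (11 of 13 below 0), beside -0.00053 and -0.01 over all genes.

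Within single cultures, IL-17A libraries had lower values than unstimulated ones for 11 of 13 mRNAs in KO culture 1, 12 in KO culture 2, 7 in Het culture 1, 9 in Het culture 2 and all 13 in Het culture 3. Het culture 3 had the largest shift, with a median log2 change of -0.27. mt-Co1, mt-Co2, mt-Nd4 and mt-Cytb were lower in 5 of 5 cultures, by 0.02 to 0.19 on the log2 scale for mt-Co1. Some of these changes were very small, such as -0.00082 for mt-Co2 in Het culture 1 and -0.00113 for mt-Cytb in KO culture 1. The share of all tested genes that were lower in 5 of 5 cultures, or within a single culture, was not computed. mt-Co1 was 833 and 848 FPKM in KO libraries with IL-17A, against 842 and 945 FPKM in unstimulated KO libraries, in order of culture. It was 832, 450 and 592 FPKM in Het libraries with IL-17A, against 913, 488 and 676 FPKM in unstimulated Het libraries. Within each pair the IL-17A library was the lower one, by less than the gap between the number sets. With culture as a block over the 5 cultures, mt-Co1 had a mean change of -0.12 (adjusted p = 0.632) and mt-Nd4 of -0.17 (adjusted p = 0.779, limma). These changes fail the correction over all genes. The share of the 37 genes in all FPKM was 1.61% ± 0.42 with IL-17A and 1.70% ± 0.39 unstimulated (SD, n = 5 cultures each), lower in 3 of 5 cultures (two-sided exact sign-flip p = 0.25, smallest possible 0.0625).

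mt-Tc had the smallest unadjusted p of the 31 genes in KO cells. It was 13.4 and 9.61 FPKM in KO libraries with IL-17A, against 22.0 and 18.6 FPKM in unstimulated KO libraries (log2 -0.78, SE 0.26, unadjusted p = 0.0152, adjusted p = 1.00, limma). Both KO cultures showed it (-0.67 and -0.88). In Het cells the log2 change was -0.07, with -0.35, -0.18 and 0.32 in Het cultures 1, 2 and 3. The difference between genotypes in this change did not pass the test. The differences of mt-Rnr1 and mt-Nd2 were uneven among cultures. mt-Rnr1 was 129 and 176 FPKM in KO libraries with IL-17A, against 455 and 192 FPKM in unstimulated KO libraries (log2 -0.97, SE 0.38, unadjusted p = 0.0336, adjusted p = 1.00, limma). The change was -1.81 in KO culture 1 and -0.12 in KO culture 2. mt-Nd2 in Het cells had a log2 change of 2.15 (SE 1.82), with unstimulated Het culture 2 listed at 0.0132 FPKM. Without that library it was -0.51 (adjusted p = 0.911).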

How the data were processed

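RNA-seq values came from 1 table that the authors deposited, with FPKM per gene in 10 poly(A)-selected libraries; FPKM were made by the authors, and the depth behind them is not given. The build mm10 and the programs HISAT2, StringTie, SAMtools and DESeq2 are named, without their roles, per the submitters' processing notes. Versions, annotation release, strand setting and the handling of reads with several matches were not given in the sources used here. Positions, names and sequences were taken from the GENCODE annotation and transcripts of GRCm38, the assembly behind mm10.

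The 12054 genes that averaged 1 FPKM or more were tested on log2(FPKM + 1) with limma 3.58.1 (R 4.3.3) and its mean-variance trend, two-sided, with Benjamini-Hochberg adjustment over all of them and a threshold of 0.05. Folds on this scale understate the change of low genes. Genotype and IL-17A were tested in 1 model of the 4 group means, and number sets on 5 culture means. This test treats the libraries as replicates; the labels do not say that they come from separate animals, so a p-value here reflects the spread of these libraries alone, possibly a technical one. Single values were compared by exact permutation over cultures. Nuclear copies were searched with BLAST 2.17.0. The limma steps were also run on simulated independent values with known changes. Those values held no pairing within cultures, and culture means were simulated at a low spread only. That run is therefore no check of the error rate of the number-set calls. The pairing of same-numbered libraries was examined within each genotype. Their deviations from the group means correlated across genes at 0.227 in the KO cultures (a single value for both). In Het cultures 1, 2 and 3 they correlated at 0.607, 0.488 and 0.137. Mismatched pairs were not computed beside these, so the values do not show that the numbers pair libraries. The cultures therefore rest on the replicate numbers in the labels, and culture as a replicate block is an alternative.

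All protein-coding and rRNA genes are named, tRNA genes where the mean reached 1 FPKM, and of each nuclear list the 3 largest changes past the threshold. Members and lists were chosen with earlier results of these data known, including the mt-Atp6 difference between the number sets, so that difference is no independent support. The alternatives were other pseudocounts, filters and scalings, fits without the trend, with library weights, with culture blocks, with fewer groups, and without single libraries or cultures. Fits of number sets in unstimulated or IL-17A libraries alone were added after the data had been seen. The fit of 1 IL-17A effect over the 5 cultures, with culture as a block, was likewise not planned.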

Additional observations from a re-analysis of the deposited data

Results flagged for a closer look

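A far library was looked for in 32 groups of 4 or 6 libraries of 1 number set. Of these, 5 held a library far from the others (its gap to the nearest library over the whole range was past Dixon's 95% limit). Chance flags about 1 in 20 independent groups. These groups are not independent, since they are genes measured in the same 10 libraries, so the count is no test. Unstimulated Het culture 3 had 289 FPKM of mt-Rnr1, against 169 to 181 FPKM in the other libraries of numbers 33 to 38. It also had 742 FPKM of mt-Rnr2, against 644 to 647 FPKM there. Unstimulated KO culture 1 had 455 FPKM of mt-Rnr1, against 129 to 209 FPKM in the other libraries of numbers 1 to 14, and 814 FPKM of mt-Co3, against 684 to 718 FPKM. IL-17A-treated KO culture 1 had 195 FPKM of mt-Nd3, against 246 to 271 FPKM in the others of numbers 1 to 14.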

How the results depend on the processing

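Of 187 alternative values of the main counts and shares, 168 were labelled the same, and 19 moved. A count was labelled the same if it equalled or lay near the main count. A share was labelled the same if its direction held and its exact p stayed on the same side of 0.05. The smallest possible exact p was 0.0625 or more, so a share could change its label only by turning direction. Between number sets, no filter on low values left 0 genes higher and 1 lower (0.435% of all genes called), the Het cultures alone 0 higher, and unstimulated libraries alone 0 higher and 2 lower. Leaving out single cultures gave 0 to 3 higher and 1 to 15 lower. mt-Atp6 was called in each of these fits and was the 1 gene left without KO culture 2, Het culture 1 or Het culture 2; mt-Atp8 was also called without KO culture 1, and 18 genes were called without Het culture 3. The Het-only fit has 1 residual degree of freedom, so its p-values lean on the spread borrowed across genes. For mt-Rnr1 the log2 difference turned to 0.076 in IL-17A libraries alone and ranged from -0.28 to 0.14 without single cultures (0.044 without KO culture 1), and for mt-Co3 the range was -0.17 to 0.045. Between KO and Het, the calls were 4 with IL-17A and 1 unstimulated without Het culture 1, and 12 and 7 with library weights (29.5% and 24.3% of all genes), whose estimation did not converge; those weights also gave 22 calls for IL-17A in Het cells (38.6% of all genes) and an mt-Nd2 change of -0.27. Within numbers 1 to 14 mt-Atp6 with IL-17A turned to -0.26 and mt-Nd2 unstimulated to -0.24; without single libraries mt-Nd2 ranged from -0.0093 to 4.10 for KO against Het, and from -0.51 to 3.60 for IL-17A in Het cells. With culture as a replicate block 0 genes were called for IL-17A, as without it. TPM scaling and scaling to genes off the mitochondrial chromosome kept the direction of the 13 genes called between number sets. Depth limits the tRNA genes near the floor of 3 fragments.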
